A study of Homo sapiens with 14 samples.

Results

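VEGFA, the gene of vascular endothelial growth factor A, was followed with 9 further genes that are known for their response to low oxygen or belong to its family: VEGFB, CA9, ADM, BNIP3, NDRG1, EGLN3, P4HA1, PDK1 and SLC2A1. They were taken by gene symbol, or by NCBI gene number in the table without symbols, and all 10 were present among the 27819 genes that the 4 count tables have in common. The RNA came from CWR22Rv1, a human prostate cancer cell line, exposed for 72 h to the vehicle DMSO, to an inhibitor of fucosylation or to an inhibitor of sialylation. DMSO had 3 libraries. Fucotrim I at 30 µM (3 libraries) and Fucotrim II at 60 µM (2 libraries) are rhamnose-1-phosphate derivatives aimed at GMDS, an enzyme on the route from GDP-mannose to GDP-fucose. SGN-2FF at 100 µM (3 libraries) is 2-fluorofucose, a fluorinated fucose analogue, and P-SiaFNEtoc at 2 µM (3 libraries) is a sialyltransferase inhibitor of the fluorinated sialic acid type. All groups are cultures of 1 cell line, the doses differ between the inhibitors, and the sources name no culture in low oxygen. The libraries held 12553094 to 19981453 counts on genes, and each inhibitor was compared with the same 3 DMSO libraries.

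Cells sense oxygen through the prolyl hydroxylases encoded by EGLN1, EGLN2 and EGLN3, which mark the alpha subunits of the hypoxia-inducible factors (HIF1A, EPAS1) for capture by the VHL ubiquitin ligase. When oxygen is low the alpha subunit is spared, pairs with ARNT and binds DNA at a core of the letters ACGTG or GCGTG, known as the hypoxia response element. Genes switched on in this way include the angiogenic factor VEGFA, glucose transport and glycolysis genes and collagen-modifying enzymes, and several of them, VEGFA among them, also answer to other signals such as ATF4 in amino acid and endoplasmic reticulum stress. Since the alpha subunit is controlled mainly as a protein, RNA levels of HIF1A alone do not report the activity of the pathway.

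The stretches of promoter that hold those core letters are given here, because they are the sequence feature by which these genes are usually grouped. RefSeq promoters (GRCh38.p14) matched 8 of the 10 genes by symbol, and VEGFA and NDRG1 had no match. In the 250 bases before the start site, searched on both strands, 6 of the 8 genes held a core, 4 of them as ACGTG. Over all 35116 promoters of the table, 18.5% held ACGTG, 32.2% held GCGTG and 43.2% held either. Capitals mark the core letters, read as CACGT or CACGC where they lie on the other strand, and each stretch runs 5′ to 3′ on the strand of its gene.
BNIP3: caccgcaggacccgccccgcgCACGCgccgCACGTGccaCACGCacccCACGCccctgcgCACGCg
CA9: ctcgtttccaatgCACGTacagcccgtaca
P4HA1: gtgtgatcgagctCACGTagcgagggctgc
PDK1: ccctgctgcccgcCACGTccctCACGTacc
ADM: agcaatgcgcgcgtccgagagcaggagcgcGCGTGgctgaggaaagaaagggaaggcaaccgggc
VEGFB: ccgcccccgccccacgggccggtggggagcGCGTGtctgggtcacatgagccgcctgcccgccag
The BNIP3 stretch (chr10:131982022-131982087, minus strand) carried the densest set, with 4 GCGTG cores and a CACGTG that reads as ACGTG on either strand. The CA9 stretch lies at chr9:35673897-35673926 (plus strand), that of P4HA1 at chr10:73096936-73096965 (minus strand) and that of PDK1 at chr2:172556060-172556089 (plus strand), the second of 2 start sites listed for PDK1. All 30 bases of the CA9, P4HA1 and PDK1 stretches are annotated as exon in GENCODE, and those of P4HA1 and PDK1 lie within the GENCODE span of their gene. The ADM stretch lies at chr11:10304942-10305006 and that of VEGFB at chr11:64234493-64234557, both on the plus strand. The windows of EGLN3, SLC2A1 and the other PDK1 start site held neither core, which says only that these letters are not in the 250 bases searched.

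In DMSO, levels were set between genes as CPM (each count as a share of the TMM-scaled library total), divided by the length of the main transcript in kb. On this scale VEGFA was the most abundant of the 10 genes at 26.0 ± 0.759 CPM per kb (SD, n = 3). It was followed by the mitophagy receptor BNIP3 (22.9 ± 2.8), the glucose transporter SLC2A1 (20.3 ± 0.698) and P4HA1 (19.6 ± 0.549), a catalytic subunit of collagen prolyl 4-hydroxylase. Down this order of 4 genes, the mean ± 1 SD of each gene overlapped that of the next. NDRG1, a stress-responsive gene of differentiated epithelium, stood lower at 8.78 ± 0.103 CPM per kb. ADM, which encodes the vasodilator peptide adrenomedullin, was at 5.12 ± 0.379 and VEGFB at 3.52 ± 0.627. The prolyl hydroxylase EGLN3 was at 1.8 ± 0.169 and PDK1, a kinase that holds back pyruvate dehydrogenase, at 1.06 ± 0.0184. CA9, the membrane carbonic anhydrase widely used as a hypoxia marker, was close to absent at 0.0762 ± 0.043 CPM per kb. In the GENCODE annotation 35.7% of the CA9 exon bases lie opposite ARHGEF39. The genes lie on hg38 at chr6:43770184-43786487 (VEGFA), chr11:64234584-64239264 (VEGFB), chr9:35673928-35681159 (CA9), chr11:10305073-10307397 (ADM), chr10:131967684-131981967 (BNIP3), chr8:133237175-133302022 (NDRG1), chr14:33924227-34462774 (EGLN3), chr10:73007217-73096974 (P4HA1), chr2:172555373-172608669 (PDK1) and chr1:42925353-42958893 (SLC2A1). Counts were made per gene, so VEGFA isoforms are not told apart. The order of the genes depends on the length chosen, and other lengths were not tried. All exons of VEGFA cover 14431 bases against 3609 in its main transcript, and those of NDRG1 12002 against 3025. Before division by length VEGFA was also the highest in DMSO, at 94.006 CPM. PDK1, with a main transcript of 14072 bases, was then at 14.952 CPM, above ADM (7.6326), VEGFB (6.3623) and EGLN3 (4.8643).

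VEGFA rose with both Fucotrims. Its level was 91.2, 96.7 and 94.2 CPM in the DMSO libraries, 103, 112 and 125 CPM with Fucotrim I, and 164 and 144 CPM with Fucotrim II. No DMSO library reached the level of any Fucotrim library. Against DMSO, the log2 fold change was 0.27 ± 0.06 (SE) with Fucotrim I, a 1.21-fold rise (adjusted p = 0.00147 by the quasi-likelihood test of edgeR, adjusted over all genes tested by the Benjamini-Hochberg method), and 0.71 ± 0.07 with Fucotrim II, a 1.63-fold rise (adjusted p = 7.48e-05). With SGN-2FF the libraries held 104, 103 and 98.2 CPM, again all above DMSO, but the log2 fold change of 0.12 ± 0.05 did not pass the threshold of 0.05 (adjusted p = 0.0548, 95% interval 0.03 to 0.22). Without DMSO replicate 2 or without SGN-2FF replicate 3 that comparison did pass (log2 fold change 0.143, adjusted p = 0.0409, and 0.145, adjusted p = 0.0303). With P-SiaFNEtoc the levels of 103, 96.0 and 93.2 CPM overlapped those in DMSO, and the log2 fold change was 0.06 (adjusted p = 0.449, 95% interval −0.04 to 0.15). The order of the means was Fucotrim II (154 CPM), Fucotrim I (114), SGN-2FF (102), P-SiaFNEtoc (97.3) and DMSO (94.0). The 2 Fucotrim II libraries were above all others, while the highest SGN-2FF library was above the lowest Fucotrim I library. The doses differ, so inhibitors were not tested against each other. CPM are shares of a library of bulk RNA, in which fewer cells and less RNA per cell cannot be told apart.

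**Figure D1:**
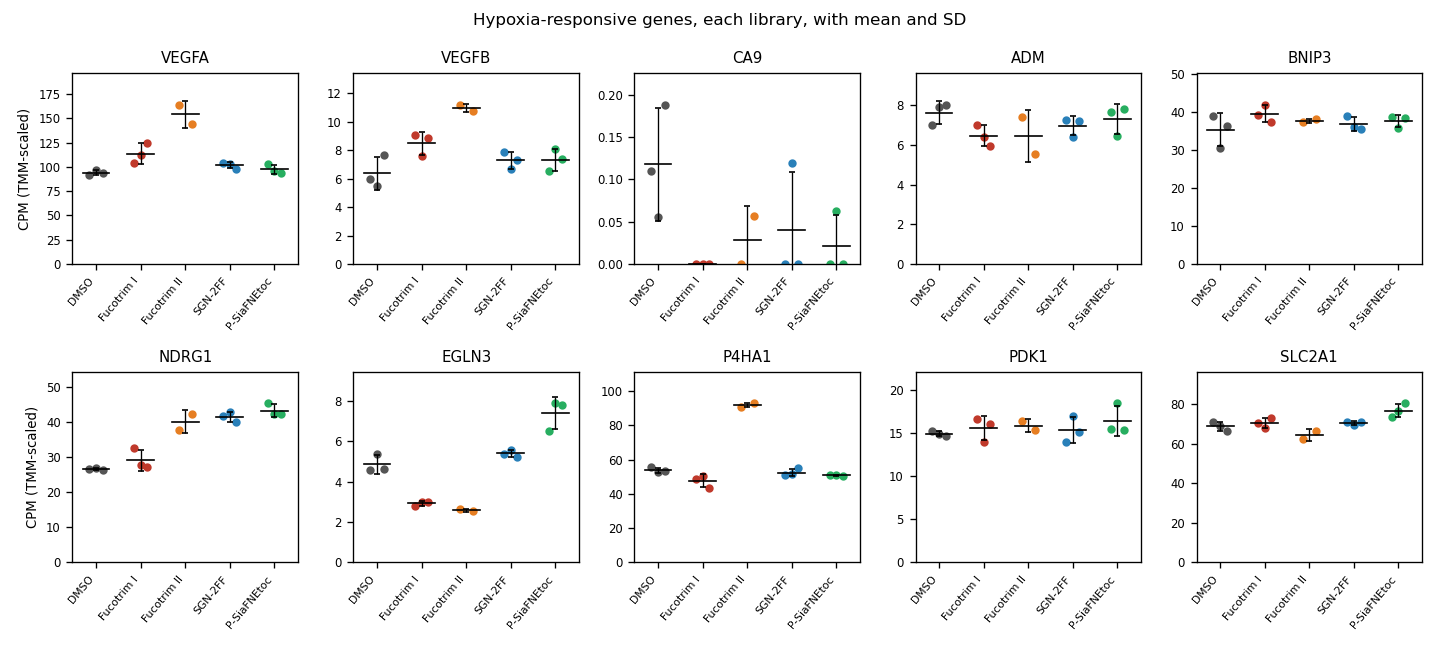
Level of each of the 10 genes in every library, in CPM after TMM scaling (vertical axes start at 0), for DMSO, Fucotrim I, Fucotrim II, SGN-2FF and P-SiaFNEtoc, with points for libraries, long bars for means and error bars for the SD. VEGFA sat between 144 and 164 CPM in the Fucotrim II libraries against 91.2 to 96.7 CPM in DMSO, while NDRG1 and EGLN3 followed other patterns.

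The share of counts on mitochondrially encoded genes was 5.98% to 7.03% in DMSO, 8.67% to 14.2% with Fucotrim I, 12.2% to 17% with Fucotrim II, 8.27% to 8.69% with SGN-2FF and 6.11% to 6.83% with P-SiaFNEtoc. Within each Fucotrim the library with the highest VEGFA level also had the highest mitochondrial share. With the 37 mitochondrial genes left out of the library totals, the VEGFA log2 fold change was 0.28 with Fucotrim I and 0.71 with Fucotrim II. Leaving them out changes only the scaling, so it cannot tell whether VEGFA goes with the mitochondrial share. ATF4, a transcription factor that also acts on VEGFA, was at 477 CPM in DMSO and 271 CPM with Fucotrim I. It fell by 0.81 on the log2 scale with Fucotrim I (edgeR, adjusted p = 3.56e-11) and by 0.21 with Fucotrim II (adjusted p = 0.0145). With SGN-2FF it fell by 0.13 (adjusted p = 0.00837) and with P-SiaFNEtoc by 0.12 (adjusted p = 0.027). In the main test ATF4 RNA was lower with all 4 inhibitors. These are RNA levels, which alone do not report the activity of the ATF4 protein. The Fucotrim II call of ATF4 was lost without any single DMSO library (adjusted p = 0.0824, 0.0574 and 0.0846, log2 fold change −0.206, −0.224 and −0.208). The P-SiaFNEtoc call of ATF4 was lost without DMSO replicate 1 or 3 (−0.12 and −0.119, adjusted p = 0.0721 and 0.1) and without P-SiaFNEtoc replicate 1 or 2 (−0.0947 and −0.135, adjusted p = 0.146 and 0.0723). The part of the mitochondrial share and of ATF4 in the VEGFA values was not tested.

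VEGFB, a paralogue of VEGFA that acts through the receptor FLT1 and is not a classical hypoxia target, rose with the Fucotrims as well. It held 5.94, 5.50 and 7.64 CPM in DMSO, 9.04, 7.57 and 8.88 CPM with Fucotrim I, and 11.2 and 10.7 CPM with Fucotrim II. The Fucotrim II libraries were apart from DMSO, while 1 Fucotrim I library fell below the highest DMSO library. The log2 fold change was 0.79 ± 0.15 with Fucotrim II (adjusted p = 0.00209) and 0.42 ± 0.14 with Fucotrim I (adjusted p = 0.0195). The Fucotrim I call was lost without DMSO replicate 1 or 2 (0.376 and 0.327, adjusted p = 0.0733 and 0.09) and without Fucotrim I replicate 1 or 3 (0.377 and 0.396, adjusted p = 0.0519 and 0.0716). With SGN-2FF (7.88, 6.66 and 7.29 CPM) and P-SiaFNEtoc (6.54, 8.07 and 7.37 CPM) VEGFB overlapped DMSO, with log2 fold changes of 0.21 in both (adjusted p = 0.302 and 0.309, 95% intervals −0.07 to 0.48 and −0.07 to 0.48).

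No other tested gene of the VEGF system passed the test upward. Of 8 further family members and receptors, 4 had enough counts to be tested, and 2 fell with Fucotrim I (50% of the 4, beside 43.8% of all genes tested in either direction), 1 fell with Fucotrim II (25%, beside 51.4%) and 0 passed with SGN-2FF or P-SiaFNEtoc by edgeR, DESeq2 or limma-voom, where 1 gene, VEGFC, had an unadjusted edgeR p under 0.05. VEGFC, the lymphangiogenic ligand, was at 4.53 CPM in DMSO and 2.64 CPM with Fucotrim I, a log2 fold change of −0.77 ± 0.19 (adjusted p = 0.00218). NRP1, a VEGFA co-receptor, held 52.2, 52.5 and 47.8 CPM in DMSO, 40.6, 46.7 and 42.0 CPM with Fucotrim I, and 35.4 and 37.3 CPM with Fucotrim II, all below DMSO. Its log2 fold change was −0.23 ± 0.07 with Fucotrim I (adjusted p = 0.00943) and −0.49 ± 0.08 with Fucotrim II (adjusted p = 0.00067). Without Fucotrim I replicate 3 the first of these was lost (−0.212, adjusted p = 0.0528), which leaves 1 gene called with Fucotrim I. VEGFC with Fucotrim II was −0.36 (adjusted p = 0.121) and passed without Fucotrim II replicate 2 (−0.574, adjusted p = 0.0397). The signalling receptors FLT1 and KDR had no counts in any treated library, and FLT1 none in DMSO. Of the 5 endothelial markers PECAM1, CDH5, VWF and TEK were at 0 to 0.136 CPM in every group mean. The fifth, CLDN5, was at 1.26 CPM in DMSO, 0.536 CPM with Fucotrim I (log2 fold change −1.20, adjusted p = 0.0101, and −0.985 with adjusted p = 0.0638 without DMSO replicate 3) and 0.635 CPM with P-SiaFNEtoc (−0.94, adjusted p = 0.0464), a call lost without DMSO replicate 1 or 3 (−0.965 and −0.731, adjusted p = 0.0713 and 0.209) or any P-SiaFNEtoc library (−1.13, −0.704 and −1.05, adjusted p = 0.0545, 0.206 and 0.073). The luminal markers KRT8 (477 CPM in DMSO) and HOXB13 (230) were abundant. In DMSO the 5 leukocyte markers were at 0 to 0.685 CPM, and of the 5 fibroblast markers COL1A1 was at 17.3 CPM, LUM at 2.49 CPM and the others under 1 CPM. COL1A1 rose with Fucotrim II to 26.2 CPM (0.59, adjusted p = 0.00185), where VEGFA also rose, and it was 0.23 with Fucotrim I (adjusted p = 0.0774, and 0.336 with adjusted p = 0.00689 without Fucotrim I replicate 1). Its part in the VEGFA values was not tested. CLDN5 and COL1A1 were chosen for mention after their values were seen.

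EGLN3, a prolyl hydroxylase that is itself a HIF target, fell with both Fucotrims and rose with P-SiaFNEtoc. It held 4.56, 5.39 and 4.64 CPM in DMSO, 2.80, 2.97 and 3.01 CPM with Fucotrim I, and 2.65 and 2.55 CPM with Fucotrim II. With P-SiaFNEtoc it held 6.49, 7.88 and 7.81 CPM, and with SGN-2FF 5.38, 5.59 and 5.24 CPM. All Fucotrim libraries were below DMSO, all P-SiaFNEtoc libraries above it, and SGN-2FF overlapped it. EGLN3 fell by 0.73 on the log2 scale (SE 0.17) with Fucotrim I (adjusted p = 0.00162) and by 0.91 (SE 0.18) with Fucotrim II (adjusted p = 0.00227), and rose by 0.60 (SE 0.13) with P-SiaFNEtoc (adjusted p = 0.0021). SGN-2FF gave 0.16 (adjusted p = 0.444, 95% interval −0.12 to 0.45). EGLN3 rests on few counts, 36 to 135 per library. The changes with P-SiaFNEtoc and the Fucotrims were not tested against each other, since their doses differ.

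NDRG1 rose with Fucotrim II, SGN-2FF and P-SiaFNEtoc, and it had the smallest adjusted p of the 10 genes with the latter 2. The DMSO libraries were close together at 26.7, 26.7 and 26.2 CPM. With SGN-2FF it held 41.6, 42.8 and 40.0 CPM, with P-SiaFNEtoc 45.3, 42.3 and 42.2 CPM, and with Fucotrim II 37.8 and 42.4 CPM. With Fucotrim I it held 32.6, 27.8 and 27.1 CPM, above DMSO by a margin that only 1 library made wide. The log2 fold change was 0.66 ± 0.06 with SGN-2FF (adjusted p = 8.56e-09), 0.71 ± 0.06 with P-SiaFNEtoc (adjusted p = 7.55e-10) and 0.59 ± 0.08 with Fucotrim II (adjusted p = 0.000303), each about a 1.5-fold to 1.63-fold rise. Fucotrim I gave 0.14 (adjusted p = 0.172, 95% interval −0.03 to 0.30). In the GENCODE annotation 6.3% of the NDRG1 exon bases are shared with an unnamed gene on the same strand. How reads there were counted is not given in the sources used here.

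P4HA1, which hydroxylates proline in collagen so that its triple helix is stable, rose with Fucotrim II. Its level was 55.5, 52.7 and 53.1 CPM in DMSO, 90.9 and 92.8 CPM with Fucotrim II, and 48.8, 50.7 and 43.5 CPM with Fucotrim I. The Fucotrim II libraries were far above DMSO and the Fucotrim I libraries just below it. The log2 fold change was 0.77 ± 0.06 with Fucotrim II, a 1.7-fold rise (adjusted p = 2.57e-05), and −0.17 ± 0.07 with Fucotrim I (adjusted p = 0.0456). The Fucotrim I value lost its call when any DMSO library was left out (adjusted p = 0.16, 0.06 and 0.0865, log2 fold change −0.146, −0.184 and −0.179), without Fucotrim I replicate 1 or 3 (−0.179 and −0.104, adjusted p = 0.051 and 0.244) and with the mitochondrial genes left out (−0.163, adjusted p = 0.0534). With SGN-2FF P4HA1 held 51.1, 51.5 and 54.9 CPM and with P-SiaFNEtoc 51.1, 50.9 and 50.3 CPM, log2 fold changes of −0.03 (95% interval −0.14 to 0.09) and −0.08 (−0.18 to 0.03) with adjusted p = 0.783 and 0.314. Its paralogue P4HA2 was at 6.51 CPM in DMSO and 14.6 CPM with Fucotrim II, a log2 fold change of 1.16 ± 0.11 (adjusted p = 5.21e-05). With Fucotrim I P4HA2 was at 8.61 CPM (0.40, adjusted p = 0.0145), a call lost without DMSO replicate 2 (0.349, adjusted p = 0.0597) or Fucotrim I replicate 3 (0.33, adjusted p = 0.0696).

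SLC2A1, which brings glucose into the cell, changed little. It held 71.0, 69.0 and 66.3 CPM in DMSO and 73.4, 76.5 and 80.4 CPM with P-SiaFNEtoc, all above DMSO. The log2 fold change with P-SiaFNEtoc was 0.16 ± 0.05, a 1.12-fold rise (adjusted p = 0.025). That call was lost without DMSO replicate 3 (0.133, adjusted p = 0.124) and without P-SiaFNEtoc replicate 2 or 3 (0.159 and 0.125, adjusted p = 0.0797 and 0.105). The other values were 0.04 with Fucotrim I (95% interval −0.08 to 0.16, adjusted p = 0.643), −0.10 with Fucotrim II (−0.25 to 0.05, adjusted p = 0.243) and 0.04 with SGN-2FF (−0.06 to 0.14, adjusted p = 0.593).

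BNIP3, PDK1 and ADM passed the test with no inhibitor. BNIP3 held 39.0, 30.6 and 36.5 CPM in DMSO and 35.7 to 41.9 CPM in the treated libraries, which overlapped DMSO with each inhibitor. Its log2 fold change ran from 0.07 with SGN-2FF to 0.17 with Fucotrim I (adjusted p = 0.1, 95% interval −0.00093 to 0.34), and the latter was 0.248 without DMSO replicate 1 (adjusted p = 0.0352) and 0.073 without DMSO replicate 2 (adjusted p = 0.51). PDK1 held 14.7 to 15.2 CPM in DMSO and 13.98 to 18.5 CPM in the treated libraries, those with P-SiaFNEtoc (15.4 to 18.5) and Fucotrim II (15.3 and 16.4) above DMSO on this scale, with log2 fold changes of 0.06, 0.08, 0.06 and 0.14 for Fucotrim I, Fucotrim II, SGN-2FF and P-SiaFNEtoc (adjusted p = 0.66, 0.51, 0.67 and 0.303). The 95% intervals reached from −0.14 to 0.31 over the 4 comparisons. Of the members tested in the main fits, ADM alone had a log2 fold change below 0 with every inhibitor. It was −0.23, −0.24, −0.12 and −0.05 in the same order (adjusted p = 0.157, 0.226, 0.51 and 0.803). The ADM libraries overlapped DMSO each time (6.98 to 8.02 CPM in DMSO, 5.54 to 7.81 CPM in the treated libraries). ADM with Fucotrim II passed without Fucotrim II replicate 1 (−0.465, adjusted p = 0.0272). CA9 had 2, 1 and 3 counts in the DMSO libraries and 0 to 2 counts in each treated library. These were too few for the count filter, so CA9 was not tested in the main fits and no fold is given. Without that filter it passed with no inhibitor by edgeR. The adjusted p was 0.0928 with Fucotrim I, 0.383 with Fucotrim II, 0.594 with SGN-2FF and 0.339 with P-SiaFNEtoc.

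**Figure D2:**
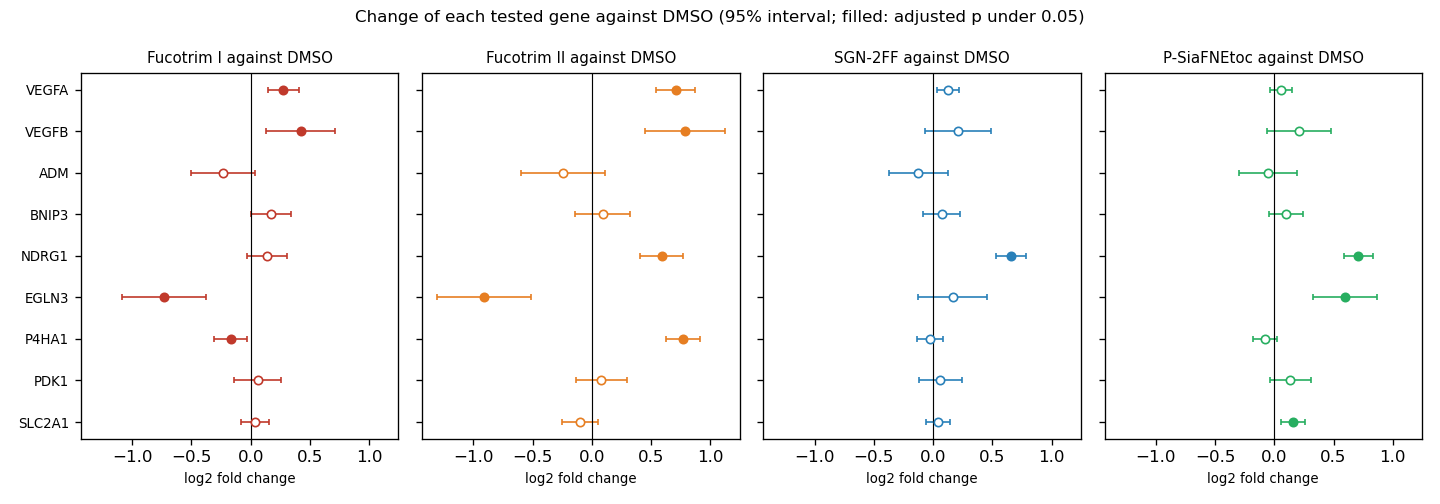
Log2 fold change against DMSO (horizontal axes) of the 9 genes tested, 1 panel per inhibitor, with 95% intervals as bars and filled points for adjusted p under 0.05 (edgeR's quasi-likelihood test). VEGFA, VEGFB, NDRG1 and P4HA1 stand above 0 with Fucotrim II and EGLN3 below it, while NDRG1 is the filled point with SGN-2FF.

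Counted over the 9 genes tested, Fucotrim I gave 2 higher and 2 lower, 44.4% of them, where 43.8% of all 14188 genes passed (21.6% higher and 22.1% lower). Fucotrim II gave 4 higher and 1 lower, 55.6%, beside 51.4% of all 14617 genes (25.6% higher and 25.7% lower). SGN-2FF gave 1 higher and 0 lower, 11.1%, beside 20.6% of all genes (11.5% higher and 9.08% lower). P-SiaFNEtoc gave 3 higher and 0 lower, 33.3%, beside 16.3% of all genes (9.02% higher and 7.33% lower). In a list of 9, each gene counts for 11.1%. The treated libraries, scaled within each comparison, were apart from DMSO for 4, 6, 2 and 5 of the 9 genes, beside 52.6%, 67.7%, 36% and 33.7% of all genes. The median log2 fold change of the 9 genes was 0.06, 0.09, 0.07 and 0.14, and that of all genes was 0.00121, 0.00752, 0.00362 and 0.000419. Past the study's fold threshold of 0.58 on the log2 scale were 1, 5, 1 and 2 of the 9, beside 9.03%, 20.8%, 2.66% and 1.68% of all genes tested. Without DMSO replicate 2, Fucotrim I replicate 1 or Fucotrim I replicate 3, the Fucotrim I count was 2 in place of 4, and without DMSO replicate 2 or SGN-2FF replicate 3 the SGN-2FF count was 2 in place of 1. The 10 genes did not move as 1 group, since EGLN3 fell where VEGFA rose with both Fucotrims, and NDRG1 rose with SGN-2FF and P-SiaFNEtoc where VEGFA did not pass the test.

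Among the genes that sense oxygen, HIF1A, the alpha subunit, rose with Fucotrim I, SGN-2FF and P-SiaFNEtoc. It held 150, 159 and 149 CPM in DMSO, 223, 220 and 215 CPM with Fucotrim I, 191, 180 and 196 CPM with SGN-2FF and 180, 181 and 170 CPM with P-SiaFNEtoc, all above DMSO. The log2 fold changes were 0.52 ± 0.05 (adjusted p = 6e-08), 0.32 ± 0.04 (adjusted p = 4.59e-06) and 0.22 ± 0.04 (adjusted p = 0.000667). With Fucotrim II, where VEGFA was highest, HIF1A held 165 and 163 CPM, a log2 fold change of 0.09 (adjusted p = 0.226, 95% interval −0.04 to 0.23). HIF1AN, the asparaginyl hydroxylase that limits HIF activity, went down with the 3 inhibitors of fucosylation, from 98.4 to 104 CPM in DMSO to 78.2 to 81.1 CPM with Fucotrim I, 69.5 and 72.7 CPM with Fucotrim II and 83.9 to 89.3 CPM with SGN-2FF. Its log2 fold changes were −0.35 (adjusted p = 2.83e-05), −0.53 (adjusted p = 0.00019) and −0.23 (adjusted p = 0.000721), and it was −0.05 with P-SiaFNEtoc (adjusted p = 0.48, 95% interval −0.14 to 0.04).

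Over the 14 oxygen-sensing genes 12 were tested, and 3 rose and 5 fell with Fucotrim I, 2 rose and 4 fell with Fucotrim II, 1 rose and 3 fell with SGN-2FF, and 1 rose with P-SiaFNEtoc. These were 66.7%, 50%, 33.3% and 8.33% of the 12, beside 43.8%, 51.4%, 20.6% and 16.3% of all genes. VHL, the substrate receptor of the ligase, fell by 0.18 with Fucotrim I (adjusted p = 0.00825) and ARNT, the shared beta subunit, by 0.17 (adjusted p = 0.0205). In the annotation 23.5% of the VHL exon bases lie opposite an unnamed gene. Without Fucotrim I replicate 3 the VHL call was lost (−0.151, adjusted p = 0.0518), and that of ARNT was lost without DMSO replicate 1 or 2 (−0.177 and −0.149, adjusted p = 0.0508 and 0.0863) or Fucotrim I replicate 1 or 3 (−0.154 and −0.141, adjusted p = 0.0518 and 0.092). Without Fucotrim I replicate 3 the count with Fucotrim I was 3 in place of 8. EGLN1, the main oxygen sensor of most cells, fell with Fucotrim II (−0.29, adjusted p = 0.00863) and SGN-2FF (−0.21, adjusted p = 0.00556), though 55.8% of its exon bases are shared with another annotated gene. EPAS1 rose by 0.45 with Fucotrim II (adjusted p = 0.0276), a call lost without DMSO replicate 1 or 3 (0.373 and 0.403, adjusted p = 0.111 and 0.102) or Fucotrim II replicate 2 (0.372, adjusted p = 0.0756). The ligase scaffold CUL2 fell by 0.49 with Fucotrim II (adjusted p = 0.00085) and the adaptor ELOB rose by 0.39 (adjusted p = 0.00853, and 0.349 with adjusted p = 0.0518 without DMSO replicate 2). RBX1, its ring finger partner, was 0.21 with Fucotrim I (adjusted p = 0.0217, lost without DMSO replicate 1 or 3 or Fucotrim I replicate 3 at 0.174, 0.212 and 0.15, adjusted p = 0.106, 0.0555 and 0.124). ARNT2 was −0.33 with Fucotrim I (adjusted p = 0.0136, and −0.274 with adjusted p = 0.0662 without Fucotrim I replicate 3) and −0.28 with SGN-2FF (adjusted p = 0.0338), where leaving out DMSO replicate 2 or 3 or any SGN-2FF library ended the call (−0.265, −0.284, −0.304, −0.28 and −0.266, adjusted p = 0.0755, 0.0799, 0.061, 0.105 and 0.0735). EGLN2 was listed at 0.0418 CPM in DMSO, and 30.6% of its exon bases are shared with a read-through gene and another gene.

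**Figure D3:**
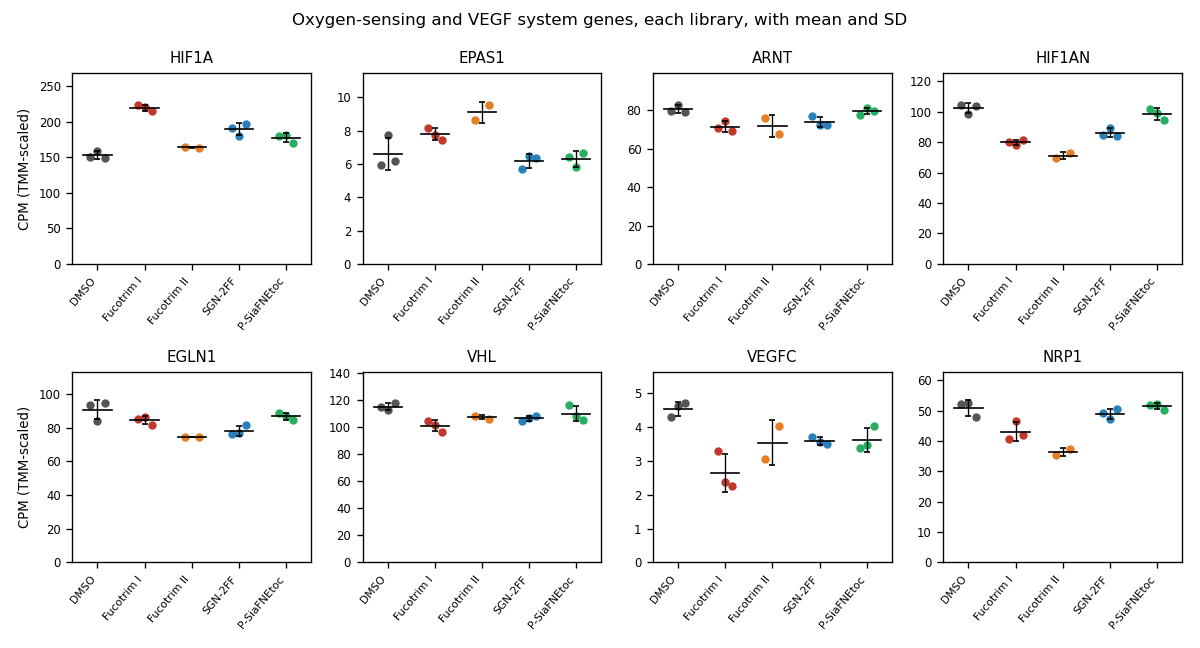
Level of 8 oxygen-sensing and VEGF system genes in every library, in CPM after TMM scaling (vertical axes start at 0), with points for libraries, long bars for means and error bars for the SD. HIF1A was highest with Fucotrim I (215 to 223 CPM) and near DMSO with Fucotrim II (163 and 165 CPM), while HIF1AN and NRP1 were lowest with Fucotrim II.

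Of 30 other genes known to respond to hypoxia 27 were tested. With Fucotrim I 7 rose and 8 fell (55.6% of the 27), with Fucotrim II 7 rose and 10 fell (63%), with SGN-2FF 5 rose and 1 fell (22.2%), and with P-SiaFNEtoc 6 rose and 1 fell (25.9%), beside 43.8%, 51.4%, 20.6% and 16.3% of all genes. The list medians were −0.07, −0.10, 0.03 and 0.08 on the log2 scale. Without DMSO replicate 1, DMSO replicate 2 or Fucotrim I replicate 3 the Fucotrim I count was 9 in place of 15. For Fucotrim II it was 8 without DMSO replicate 1 and 11 without DMSO replicate 3 in place of 17, and for SGN-2FF it was 3 in place of 6 without DMSO replicate 3 or SGN-2FF replicate 1 or 2.

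ANGPTL4, a secreted inhibitor of lipoprotein lipase, was the gene of this list with the largest rise in 3 of the comparisons. It held 22.3, 19.1 and 22.7 CPM in DMSO, 47.3, 40.1 and 42.6 CPM with Fucotrim I, 46.6 and 54.4 CPM with Fucotrim II and 29.5, 32.1 and 29.4 CPM with SGN-2FF. Every one of these treated libraries was above DMSO, with log2 fold changes of 1.02 ± 0.08 (adjusted p = 7.91e-09), 1.24 ± 0.10 (adjusted p = 2.37e-05) and 0.52 ± 0.08 (adjusted p = 1.08e-05). With P-SiaFNEtoc ANGPTL4 was 0.22 (adjusted p = 0.0472), a call lost without DMSO replicate 2 (0.148, adjusted p = 0.245) or any P-SiaFNEtoc library (0.256, 0.26 and 0.154, adjusted p = 0.0512, 0.0543 and 0.232). CA12, another membrane carbonic anhydrase and unlike CA9 well expressed at 40.6 CPM in DMSO, rose with Fucotrim I (0.24, adjusted p = 0.00585), Fucotrim II (0.50, adjusted p = 0.00104) and P-SiaFNEtoc (0.40, adjusted p = 3.92e-06). With SGN-2FF CA12 was at 0.03 (adjusted p = 0.783, 95% interval −0.10 to 0.16). HILPDA, which blocks lipolysis at lipid droplets, rose by 0.26 with SGN-2FF (adjusted p = 0.00477).

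Other genes of this list fell with 1 or more inhibitors. STC2, a secreted glycoprotein hormone, fell by 0.79 with Fucotrim I (adjusted p = 8.23e-06) and by 0.41 with Fucotrim II (adjusted p = 0.0192, lost without DMSO replicate 1 or 2 or Fucotrim II replicate 2 at −0.408, −0.394 and −0.263, adjusted p = 0.0564, 0.0573 and 0.0895). PLOD2, a collagen lysyl hydroxylase, fell by 0.51 with Fucotrim II (adjusted p = 0.000595) and by 0.34 with Fucotrim I (adjusted p = 0.000396). LOX, which cross-links collagen, fell by 0.45 with Fucotrim I (adjusted p = 0.0237) and 0.52 with Fucotrim II (adjusted p = 0.0179), calls that ended without DMSO replicate 1 (−0.416 and −0.491, adjusted p = 0.0761 and 0.0605) and without Fucotrim I replicate 3 (−0.337, adjusted p = 0.106) or Fucotrim II replicate 2 (−0.458, adjusted p = 0.0584). WSB1, a substrate receptor of a ubiquitin ligase, was 0.54 and 0.56 with the Fucotrims (adjusted p = 0.0484 and 0.0257), values that did not pass without DMSO replicate 2 or 3 or Fucotrim I replicate 2 or 3 (0.642, 0.553, 0.449 and 0.503, adjusted p = 0.0611, 0.119, 0.157 and 0.0977) for Fucotrim I, and without DMSO replicate 1 or 3 or Fucotrim II replicate 1 (0.452, 0.563 and 0.17, adjusted p = 0.0907, 0.0736 and 0.506) for Fucotrim II. BNIP3L, the paralogue of BNIP3, was −0.16 with Fucotrim I (adjusted p = 0.036, lost without any DMSO library or Fucotrim I replicate 1 or 3 at −0.173, −0.172, −0.15, −0.151 and −0.126, adjusted p = 0.0755, 0.0662, 0.124, 0.0789 and 0.153) and −0.17 with SGN-2FF (adjusted p = 0.0294, lost without DMSO replicate 3 or SGN-2FF replicate 1 or 2 at −0.156, −0.131 and −0.171, adjusted p = 0.0961, 0.15 and 0.0917). DDIT4, an inhibitor of mTORC1 signalling, fell by 0.34 with Fucotrim I (adjusted p = 0.00398, and −0.229 with adjusted p = 0.0535 without DMSO replicate 1) and was −0.25 with P-SiaFNEtoc (adjusted p = 0.0284, lost without DMSO replicate 1 or P-SiaFNEtoc replicate 1 or 3 at −0.135, −0.255 and −0.201, adjusted p = 0.248, 0.0801 and 0.152).

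**Figure D4:**
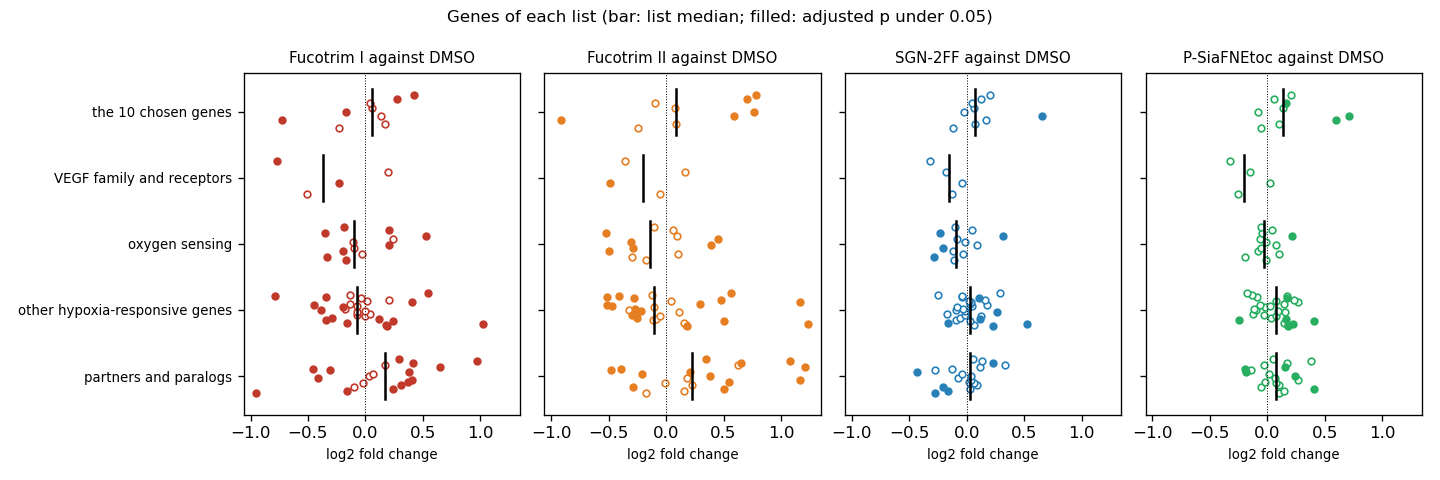
Log2 fold change against DMSO (horizontal axes) of each tested gene in 5 lists, the 10 chosen genes, the VEGF family and receptors, oxygen sensing, other hypoxia-responsive genes, and partners and paralogs, 1 panel per inhibitor, with vertical bars for list medians and filled points for adjusted p under 0.05. Genes of each list lie on both sides of 0 with the Fucotrims, and the spread is narrower with SGN-2FF and P-SiaFNEtoc.

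Partners and paralogues of the 10 genes were followed in a list of 25 genes, 19 of them tested, of which 9 rose and 5 fell with Fucotrim I, 9 rose and 4 fell with Fucotrim II, 1 rose and 4 fell with SGN-2FF and 3 rose and 2 fell with P-SiaFNEtoc. These were 73.7%, 68.4%, 26.3% and 26.3% of the 19, beside 43.8%, 51.4%, 20.6% and 16.3% of all genes. The lists are not separate sets of genes. P4HA2 and CA12, for example, are also among the other hypoxia-responsive genes, so their calls count in both lists. RAMP1, a receptor activity-modifying protein for peptides of the calcitonin and adrenomedullin family, held 225, 185 and 210 CPM in DMSO, 359, 274 and 338 CPM with Fucotrim I and 423 and 534 CPM with Fucotrim II. All of these treated libraries were above DMSO, with log2 fold changes of 0.65 ± 0.12 (adjusted p = 0.00401) and 1.21 ± 0.11 (adjusted p = 3.19e-05). The ligand paralogue ADM2 fell by 0.95 with Fucotrim I (adjusted p = 1.18e-07) and by 0.28 with SGN-2FF (adjusted p = 0.0136, lost without DMSO replicate 1 or 3 or SGN-2FF replicate 1 or 3 at −0.219, −0.263, −0.265 and −0.217, adjusted p = 0.0655, 0.0524, 0.0719 and 0.0694). SLC2A10, a relative of SLC2A1, rose with both Fucotrims (0.42, adjusted p = 8.92e-05, and 0.66, adjusted p = 0.000197) and with SGN-2FF (0.23, adjusted p = 0.0132, lost without DMSO replicate 2 or SGN-2FF replicate 2 at 0.169 and 0.223, adjusted p = 0.0755 and 0.0608). The counts fell to 3 of 19 for SGN-2FF without DMSO replicate 3 or SGN-2FF replicate 1 or 2, and for P-SiaFNEtoc to 3 without DMSO replicate 2 and to 2 without P-SiaFNEtoc replicate 2.

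Other enzymes that act on pyruvate dehydrogenase, as PDK1 does, were on the list of partners. The kinase PDK4 held 155, 142 and 145 CPM in DMSO, 195, 195 and 183 CPM with Fucotrim I, 176 and 165 CPM with Fucotrim II, 114, 99.8 and 111 CPM with SGN-2FF and 138, 123 and 125 CPM with P-SiaFNEtoc. It was thus above DMSO in every Fucotrim library and below it in every SGN-2FF and P-SiaFNEtoc library. The log2 fold changes were 0.38 (adjusted p = 8.65e-06), 0.21 (adjusted p = 0.0273), −0.44 (adjusted p = 2.95e-07) and −0.19 (adjusted p = 0.00607). The PDK4 call with Fucotrim II was lost without any single DMSO library (0.239, 0.174 and 0.185, adjusted p = 0.0502, 0.13 and 0.133), and that with P-SiaFNEtoc without P-SiaFNEtoc replicate 2 (−0.157, adjusted p = 0.0655). PDP2, a phosphatase that reactivates the same enzyme, fell by 0.46 with Fucotrim I (adjusted p = 7.03e-05) and 0.39 with Fucotrim II (adjusted p = 0.00279), and was −0.19 with P-SiaFNEtoc (adjusted p = 0.0306, lost without DMSO replicate 2 or P-SiaFNEtoc replicate 2 or 3 at −0.154, −0.212 and −0.138, adjusted p = 0.131, 0.0597 and 0.156). Its relative PDP1 fell by 0.48 with Fucotrim II (adjusted p = 0.0065) and was −0.31 with Fucotrim I (adjusted p = 0.0323, lost without any DMSO library or Fucotrim I replicate 2 or 3 at −0.283, −0.311, −0.332, −0.26 and −0.276, adjusted p = 0.103, 0.0639, 0.0534, 0.102 and 0.0966). The kinase PDK2 rose by 0.38 with Fucotrim II (adjusted p = 0.00632) and by 0.24 with P-SiaFNEtoc (adjusted p = 0.00491), and was 0.03 with Fucotrim I and 0.04 with SGN-2FF (adjusted p = 0.78 and 0.731). In the annotation 38.6% of the PDK2 exon bases lie opposite SAMD14. The kinase PDK3 was −0.21 with Fucotrim II (adjusted p = 0.0474), a call lost without any DMSO library or Fucotrim II replicate 1 (−0.186, −0.21, −0.243 and −0.158, adjusted p = 0.162, 0.116, 0.0746 and 0.115), and between −0.04 and 0.07 with the others.

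The genes whose pattern was most like that of VEGFA were ranked by Pearson's r of log2 CPM over the 14 libraries, which share a cell line and its DMSO cultures, among the 11835 genes that averaged 50 counts or more. The 5 highest were TNK2 (0.975), MLPH (0.973), CDK5RAP3 (0.97), CNKSR1 (0.965) and AMT (0.965), none of them among the hypoxia genes listed here. The 3 lowest were MAPRE1 (−0.974), MRPL30 (−0.973) and PSMD11 (−0.973). Such an r holds the differences between groups, and it does not show likeness between libraries of 1 group. With Fucotrim II the log2 fold changes ran from 0.578 (CNKSR1) to 1.777 (AMT) in the 5 highest. In the 3 lowest they were −0.633, −0.402 and −0.6. Among the other 9 genes r with VEGFA was 0.807 for VEGFB, 0.74 for P4HA1, −0.609 for SLC2A1 and −0.739 for EGLN3, and it lay between −0.452 and 0.182 for the rest.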

How the data were processed

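Bulk RNA-seq of 14 libraries was analysed, grouped by the treatment in the labels. The authors prepared stranded mRNA libraries, trimmed and mapped the reads to hg38 with HISAT2 and deposited whole-number counts per gene from featureCounts, without normalization, in 4 tables that repeat the same 3 DMSO libraries. The annotation release and strand setting of the counting are not given in the sources used here. Doses and exposure time come from the study's methods. Fucotrim II had 2 libraries here, whose numbers differ between titles and library names.

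Counts were tested with edgeR 4.0.16 in R 4.3.3, each inhibitor alone with DMSO, after filterByExpr (minimum count 10, minimum total 15) and TMM scaling, with the robust quasi-likelihood test and Benjamini-Hochberg adjustment over all genes tested. A gene rose or fell at adjusted p under 0.05. The SE is the log2 fold change divided by the square root of F, and intervals use the t distribution with its degrees of freedom. P-values judge the difference from DMSO against the spread between repeats of 1 cell line. Alternatives were DESeq2 1.42.0 (size factors, test), limma-voom (limma 3.58.1, the study's tool), other count filters, leaving out each library, the replicate number as a block, adjusted p under 0.01, 1 fit of all 14 libraries, and leaving out 37 mitochondrial genes.

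The members, lists and marker genes were chosen with earlier results of these data known. Besides the 10 members and HIF1A, EPAS1, ARNT, EGLN1, VHL and ATF4, genes were named by a rule, the 2 largest rises and 2 largest falls per list and inhibitor among genes called that averaged 50 counts or more, and CLDN5, COL1A1, PDK3, KLK3, KRT8, HOXB13 and FOXA1 were named after their values were seen. Positions and shared exons come from the GENCODE annotation of hg38, promoters from RefSeq (GRCh38.p14).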

Additional observations from a re-analysis of the deposited data

How the results depend on the processing

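The VEGFA values with Fucotrim I and Fucotrim II passed the test under every alternative run. Leaving out 1 library at a time gave log2 fold changes of 0.205 to 0.34 with Fucotrim I, 0.61 to 0.789 with Fucotrim II, 0.097 to 0.145 with SGN-2FF (which passed in 2 of these) and 0.0106 to 0.0874 with P-SiaFNEtoc. NDRG1 with Fucotrim II, SGN-2FF and P-SiaFNEtoc, EGLN3 with Fucotrim I, Fucotrim II and P-SiaFNEtoc, and P4HA1 and VEGFB with Fucotrim II also kept their calls under every alternative. Without 1 library, the number of the 9 tested members called was 2 to 4 with Fucotrim I, 5 to 6 with Fucotrim II, 1 to 2 with SGN-2FF and 2 to 3 with P-SiaFNEtoc, and that of the other hypoxia-responsive genes was 9 to 15, 8 to 18, 3 to 7 and 5 to 8. At adjusted p under 0.01, 2 members were called with Fucotrim I in place of 4, and of the other hypoxia-responsive genes 8, 8 and 3 were called with Fucotrim I, Fucotrim II and SGN-2FF in place of 15, 17 and 6. With all 14 libraries in 1 fit, 3 of those genes were called with SGN-2FF and 3 with P-SiaFNEtoc in place of 6 and 7, and over all genes 1695 and 998 were called in place of 2946 and 2331. Over all genes the DESeq2 test called 1942 and 1482 with these inhibitors. Adjusted p under 0.01 gave 1609 and 1171, and leaving out SGN-2FF replicate 2 or P-SiaFNEtoc replicate 2 gave 1642 and 1516. SLC2A1 with P-SiaFNEtoc missed the threshold with the DESeq2 test (adjusted p = 0.059) and with 1 fit (adjusted p = 0.0817), and P4HA1 with Fucotrim I with DESeq2's size factors (adjusted p = 0.0537) and test (adjusted p = 0.0989). LOX with Fucotrim II missed it with the DESeq2 test (adjusted p = 0.0851), and PDK2 with P-SiaFNEtoc with 1 fit (adjusted p = 0.0681). The cause of these changes was not tested.

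Replicate numbers were not taken to pair libraries in the main test. Same-numbered libraries had correlations of deviations of 0.242, 0.266 and 0.0492 with Fucotrim I, 0.152, −0.0602 and −0.161 with SGN-2FF, −0.136, 0.0645 and −0.032 with P-SiaFNEtoc, and −0.264 and −0.382 with Fucotrim II by the titles. By the library names the 2 Fucotrim II values were 0.382 and 0.171, from fewer than 3 pairs. Libraries with different numbers ran from −0.294 to 0.094 with Fucotrim I, −0.213 to 0.252 with SGN-2FF and −0.117 to 0.16 with P-SiaFNEtoc. With the block, 7288 genes were called with Fucotrim I in place of 6209, and 2868 with SGN-2FF in place of 2946. P-SiaFNEtoc gave 2674 in place of 2331. Fucotrim II gave 5300 by the titles and 7779 by the library names, in place of 7511. With the replicate number as a block, VEGFA changed by 0.27, 0.705, 0.123 and 0.0556 with Fucotrim I, Fucotrim II, SGN-2FF and P-SiaFNEtoc, each on the same side of the threshold, BNIP3 with Fucotrim I passed (adjusted p = 0.0188), EGLN1 with Fucotrim II did not by the titles (−0.257, adjusted p = 0.137), and 8 other hypoxia-responsive genes were called with Fucotrim II in place of 17, or 15 with the numbers of the library names. Fucotrim II rests on 2 libraries. Genes with few counts, CA9 above all, limit what could be detected.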

Other observations

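Several luminal prostate genes, which the comparisons above used only to check the cell type, rose with each inhibitor. KLK3, the gene of prostate-specific antigen, was at 30.6 CPM in DMSO and had log2 fold changes of 1.15 with Fucotrim I (edgeR's quasi-likelihood test, adjusted p = 1.26e-08), 0.59 with Fucotrim II (adjusted p = 0.000648), 1.32 with SGN-2FF (adjusted p = 9.1e-15) and 0.59 with P-SiaFNEtoc (adjusted p = 8.36e-08). Of the 8 luminal markers 5, 5, 6 and 5 rose in that order and 0 fell, beside 21.6%, 25.6%, 11.5% and 9.02% of all genes tested that rose. FOXA1, a pioneer factor of this lineage, had all Fucotrim I and Fucotrim II libraries below DMSO without passing the test (−0.07 and −0.12, adjusted p = 0.248 and 0.143), and with Fucotrim II it was −0.159 without Fucotrim II replicate 1 (adjusted p = 0.012). The keratin gene KRT8 (477 CPM in DMSO) rose by 0.75, 0.56, 0.45 and 0.40, and HOXB13, a prostate lineage factor, by 0.73, 0.66, 0.44 and 0.32.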
